A study of Glycine max with 8 samples.

Results

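A set of 101 loci was lower in every leaf library of the soybean line labelled OX5 than in every leaf library of wild type (WT), out of 31785 loci listed in the deposited table. The members were chosen by their own FPKM values (fragments per kilobase of gene, scaled to library depth). After 1 was added to each value, the lowest of the 4 WT libraries had to be at least 1.5 times the highest of the 4 OX5 libraries, and the WT mean had to be at least 1 FPKM. That ratio, of the lowest WT to the highest OX5 value, was also used to rank them. Because the rule used the contrast between the lines, the differences between WT and OX5 given for the members are descriptions and are not tests. The limit of 300 members was not reached, and no locus that met the ratio was lost to the minimum of 1 FPKM. By the same rule turned around, 114 loci were higher in every OX5 library.

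Leaves of soybean (Glycine max) were collected mature, at R6, the stage at which green seeds fill the pods, from plants of both lines supplied with sufficient phosphorus, and RNA was sequenced in 4 libraries per line. Values listed for a locus follow the order of replicates 1 to 4 within a line. In whole leaves, fewer cells of a type and less RNA per cell cannot be told apart. The labels give neither the gene altered in OX5 nor a control line beside WT. Whether each library is a plant of its own is not stated, so any spread or p-value given here measures the spread between these libraries, which may be technical. OX5 is represented by a single line, so what belongs to that line and what belongs to its alteration cannot be told apart.

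During seed filling a soybean leaf is a source organ: it sends sugars to the pods, and its nitrogen compounds are moved to the seed as the leaf approaches senescence. The soybean genome also carries duplicated copies of many genes, from ancient whole-genome duplications and from tandem copying. Reads from near-identical copies can be divided between loci by the counting step, and whether any member has such a copy was not examined.

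The IDs in the table are those of the Wm82.a4.v1 annotation, in which the digits before the G give the chromosome and the digits after it the place of the locus along it. The table does not pair the IDs with gene names, and the RefSeq gene table used here holds 0 of them. The members are therefore given by ID, with no name or role, no sequence is shown, and the labelled tissue could not be checked against leaf marker genes. Of the 101 members, 100 have a chromosome in their ID and 1 is numbered outside the annotation.

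The recovered read totals were 18768431 to 19156866 per library in WT and 17536942 to 19139497 in OX5. Libraries of a line all differed by more than counting noise, the lowest mean chi-square per locus being 10.9. Within OX5 the libraries formed pairs. Replicates 1 and 2 correlated at 0.982 over the tested loci and replicates 3 and 4 at 0.978, while the other OX5 pairings gave 0.900 to 0.938 and the WT pairings 0.924 to 0.974. Genes are not independent replicates, so these correlations are descriptive. With OX5 replicates 1 and 2 left out, 303 loci met the rule, and with OX5 replicates 3 and 4 left out, 942 did. All 101 members were among both sets, as they must be when libraries are only removed from OX5.

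Members stood mostly at low to moderate levels in WT leaves. Their WT means ran from 1.48 to 190 FPKM with a median of 8.69 FPKM, against a median of 6.65 FPKM over the 30424 loci tested (those averaging 0.5 FPKM or more across all 8 libraries). A WT mean of at least 10 FPKM was reached by 45 members (44.6%), and by 38.5% of all tested loci. The rule asked for WT values above those of OX5 and a WT mean of at least 1 FPKM. It thus favours loci that are high in WT, and nothing is read from these differences in level. In OX5 the members' means ran from 0.0634 to 61.0 FPKM, with a median of 2.19 FPKM. The ratio of the WT mean to the OX5 mean had a median of 3.41 and quartiles of 2.87 and 5.36. It was at least 2 for 100 members, at least 4 for 42 and at least 10 for 6.

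The members' difference of OX5 from WT was taken on log2(FPKM + 1). On that scale loci at low FPKM appear to change less than they do. The difference had a median of −1.45 and ran from −2.65 to −0.82. The median over all tested loci was 0.04. This difference was negative for all 101 members with quantile normalization, with median-ratio size factors and after rescaling to an equal sum. By the rule every WT value of a member was above every OX5 value, so this sign was close to fixed in advance. By limma with Benjamini-Hochberg adjustment over all tested loci, 97 of the 101 members were called lower at an adjusted p under 0.05, and 308 loci in all, 1.01% of those tested. Since the rule used this contrast, nothing is read from the share of members called. Values of the lines that did not overlap, with every WT library above every OX5 library, were found in 1628 tested loci (5.35%), and in every member by the rule.

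The number of calls moved with single libraries, over the whole table as well as among the members. Without WT replicate 3, 23 members were called lower of 23 loci in all, and without OX5 replicate 1, 41 of 47. Without WT replicate 2 the members called were 58 of 83 loci, and without OX5 replicate 2 they were 63 of 83. Leaving out WT replicate 4 gave 77 of 165, OX5 replicate 4 gave 85 of 146, WT replicate 1 gave 86 of 219 and OX5 replicate 3 gave 95 of 335. Without OX5 replicates 1 and 2, 54 members were called among 113 loci, and without OX5 replicates 3 and 4 all 101 were called among 1757 loci. Since the members were selected on these same values, nothing is read from their part in the calls.

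**Figure D1:**
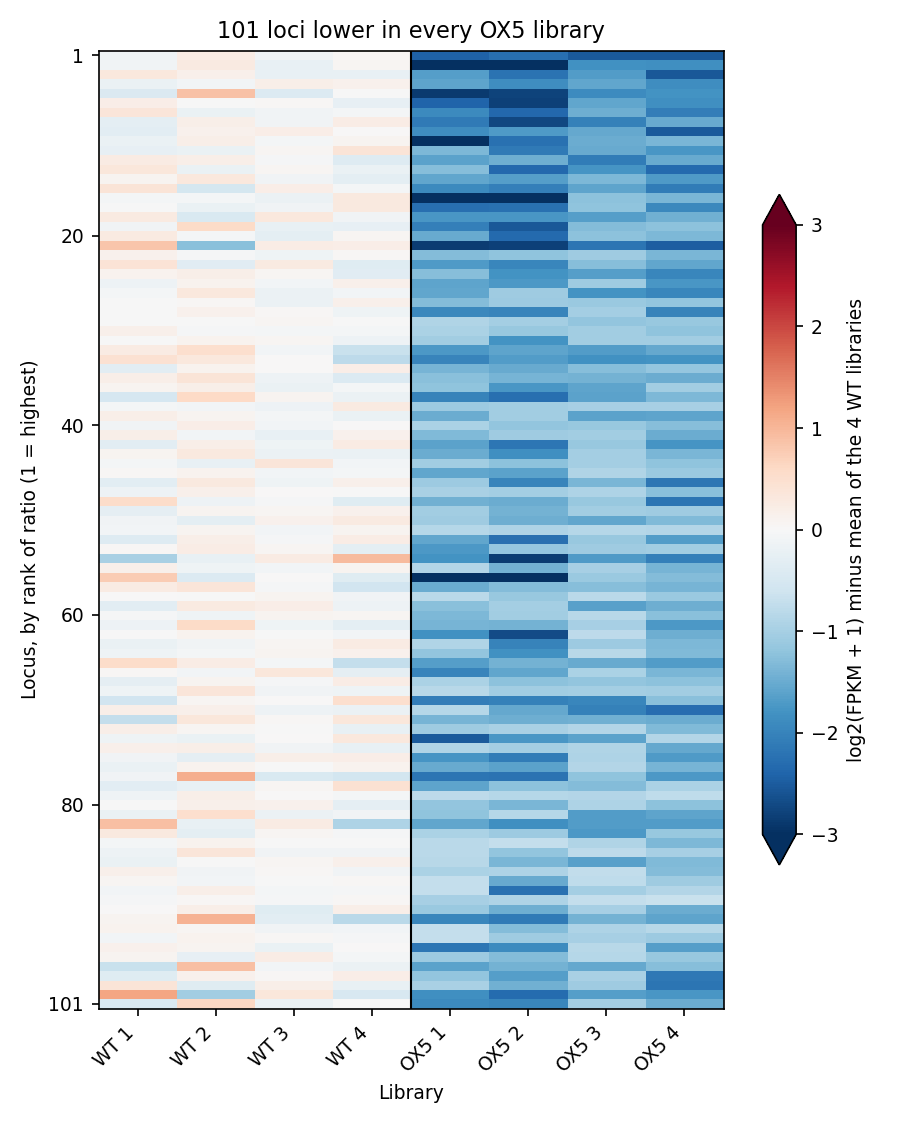
Colour shows log2(FPKM + 1) minus the mean of the 4 WT libraries for the 101 members (rows, by rank of the ratio) in the 8 libraries (columns); values beyond −3 share the darkest blue. The WT columns are mostly pale, all OX5 columns are blue, and several rows are darker in OX5 1 and 2 than in OX5 3 and 4.

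The members together took 0.296% to 0.327% of all FPKM in a WT library, and in an OX5 library they took 0.0785% to 0.118%. Their sums were 1763, 1896, 1745 and 1780 FPKM across WT and 610, 466, 702 and 551 FPKM in OX5. All OX5 sums were below all WT sums, as the rule requires. Within OX5 the sum was lowest in replicate 2 and highest in replicate 3. When each WT library was set against each OX5 library, the median member difference lay between −1.65 and −1.10 on the log2(FPKM + 1) scale over the 16 combinations. Over all tested loci the same medians lay between −0.10 and 0.19.

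The locus with the highest ratio, Glyma.07G266400.Wm82.a4.v1 on chromosome 7, was close to silent in OX5 leaves. It had 4.19, 5.65, 4.27 and 4.83 FPKM across the WT libraries, with 281 to 379 reads behind each value. In OX5 replicates 1 and 2 it had 0.0621 and 0.191 FPKM, from 4 and 13 reads. OX5 replicates 3 and 4 had no read, where a count of 0 allows up to 3 reads, or 0.0482 FPKM in either. The WT mean was 4.73 ± 0.674 FPKM and the OX5 mean 0.0634 ± 0.0902 FPKM (SD, n = 4 each), with a log2 difference of −2.43 (SE 0.14). Per depth, WT held 71.5 times the reads of OX5, with a 95% exact binomial interval of 44.5 to 123 that covers counting error only. The gap between the lines at this locus was 2.12 on the log2 scale. It is the log2 of the ratio, so the first rank of the locus made it the widest among the members. The gap exceeded the range of the locus within WT (0.36) and within OX5 (0.25).

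Another 5 members had a WT mean at least 10 times the OX5 mean. Of these, Glyma.17G131900.Wm82.a4.v1, Glyma.07G250600.Wm82.a4.v1 and Glyma.07G178200.Wm82.a4.v1 were singled out after their values had been seen. Glyma.17G131900.Wm82.a4.v1 had 11.8, 2.06, 7.45 and 7.34 FPKM across WT and 0, 0.0483, 0.581 and 0.317 FPKM in OX5. Its single low WT library, replicate 2, placed it only 21st by the ratio although its means differed 30.3-fold. Glyma.17G237600.Wm82.a4.v1 had 2.40, 2.70, 3.40 and 3.26 FPKM across WT and 0.313, 0.0741, 0.324 and 0.0809 FPKM in OX5. These OX5 values rest on 1 to 4 reads per library, and per depth the reads differed 15.0-fold with a 95% exact binomial interval of 7.94 to 31.9. Glyma.07G250600.Wm82.a4.v1 had 1.85, 3.36, 3.26 and 4.97 FPKM across WT and 0, 0.0414, 0.0905 and 0.769 FPKM in OX5. Its OX5 replicate 4 stood above the other OX5 libraries, with 17 of the 20 OX5 reads. The other members of this group, Glyma.14G116400.Wm82.a4.v1 and Glyma.07G178200.Wm82.a4.v1, had WT means 11.8 and 10.1 times their OX5 means, and their WT values ran from 1.57 to 10.96 FPKM and from 2.36 to 9.49 FPKM.

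No member was without reads in all OX5 libraries, and none was without reads in a WT library. A single OX5 library, replicate 1, had no read at Glyma.17G218600.Wm82.a4.v1, Glyma.17G131900.Wm82.a4.v1, Glyma.03G129100.Wm82.a4.v1 and Glyma.07G250600.Wm82.a4.v1. With Glyma.07G266400.Wm82.a4.v1, 5 members had no read in at least 1 OX5 library, and they are named because of these counts. The median read count per member and library was 332.5 in WT and 82 in OX5. At least 20 reads in every library backed 70 members, while 20 members had under 10 reads in an OX5 library, where the OX5 level is poorly fixed.

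Among the 12 loci with the highest ratio, several stood at moderate levels in WT and kept a readable level in OX5. Glyma.13G222100.Wm82.a4.v1 had 10.7, 9.47, 7.03 and 7.11 FPKM across WT and 2.00, 1.04, 1.95 and 0.610 FPKM in OX5, a log2 difference of −2.02 (SE 0.24). Glyma.02G195900.Wm82.a4.v1 had 17.7, 15.4, 15.9 and 12.9 FPKM across WT and 2.08, 1.33, 4.57 and 3.58 FPKM in OX5. Glyma.11G121900.Wm82.a4.v1 had 40.1, 26.7, 28.5 and 29.5 FPKM across WT and 7.51, 5.24, 10.6 and 6.50 FPKM in OX5. At these loci the lowest WT library was well above the highest OX5 library, and OX5 replicate 2 or 4 was the lowest of all.

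Glyma.13G095200.Wm82.a4.v1 had 18.7, 26.2, 21.3 and 27.2 FPKM across WT and 4.55, 2.62, 4.95 and 7.43 FPKM in OX5, so that its OX5 mean was 20.9% of its WT mean. Glyma.02G142600.Wm82.a4.v1 had 15.0, 20.8, 21.8 and 18.99 FPKM across WT and 4.45, 5.12, 5.94 and 2.48 FPKM in OX5. At both, every OX5 library was below every WT library, and the lowest OX5 value was in replicate 2 at the former and in replicate 4 at the latter. Glyma.17G218600.Wm82.a4.v1 had 6.49, 8.66, 7.23 and 8.12 FPKM across WT and 0, 0.814, 2.04 and 2.32 FPKM in OX5. Its OX5 values rested on 0, 41, 94 and 107 reads, and in OX5 replicate 1 a count of 0 allows up to 0.0629 FPKM. Glyma.02G254600.Wm82.a4.v1 had 5.57, 5.77, 7.05 and 9.23 FPKM across WT and 2.04, 0.774, 1.72 and 1.33 FPKM in OX5, all below the lowest WT library.

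**Figure D2:**
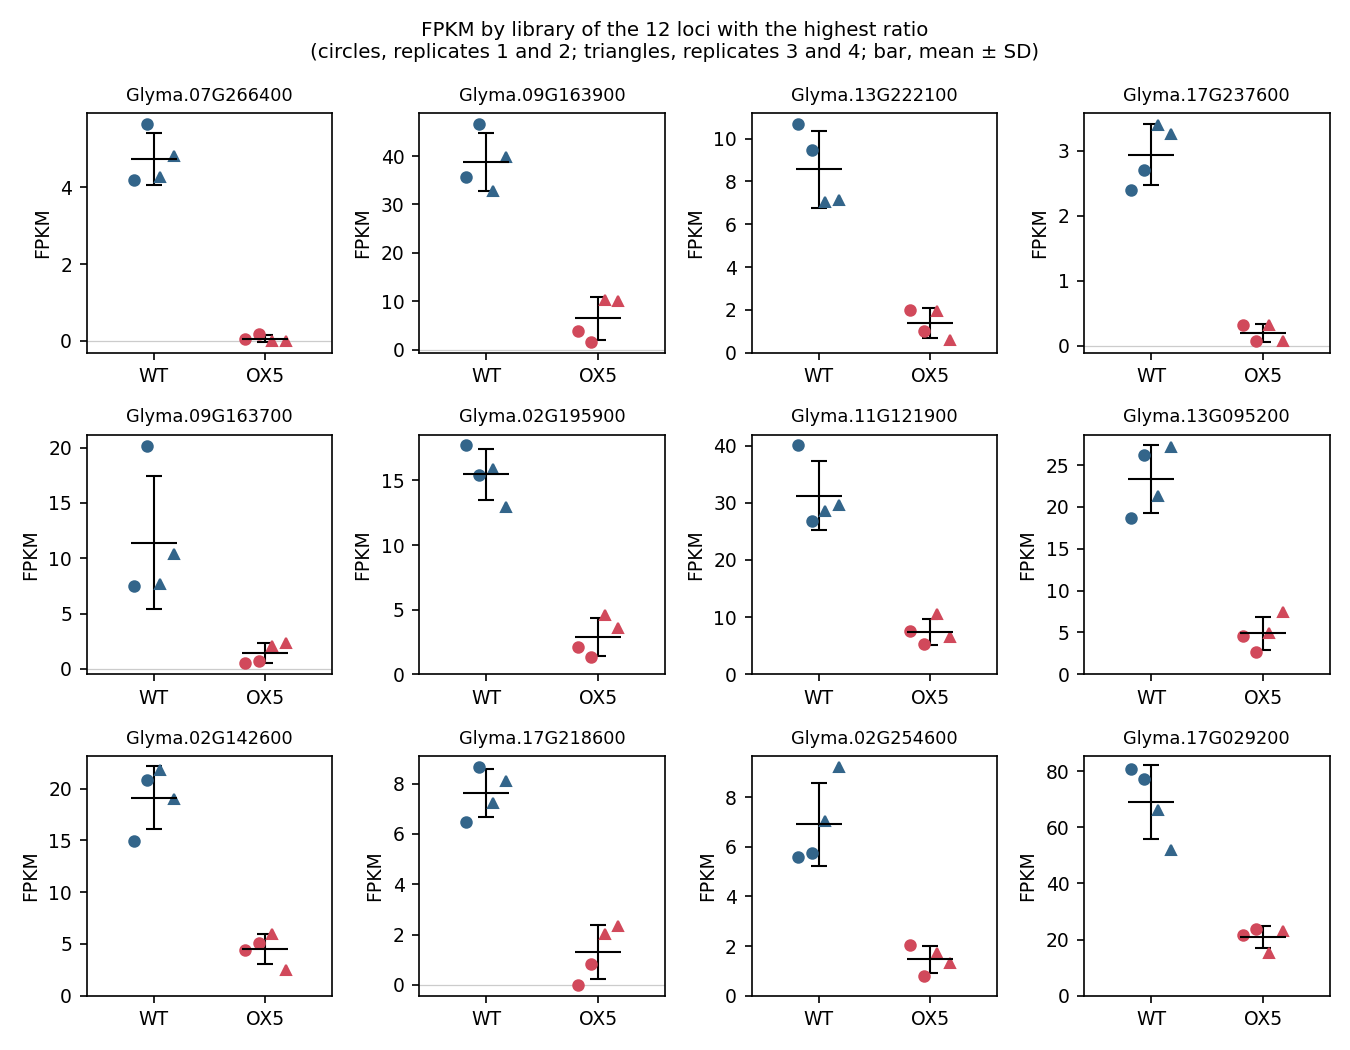
FPKM in each library of WT and OX5 (4 each) for the 12 loci with the highest ratio, each panel with its own axis; circles are replicates 1 and 2, triangles replicates 3 and 4, and bars the mean ± SD. At every locus the 4 OX5 points lie below the 4 WT points, and at Glyma.09G163900, Glyma.09G163700, Glyma.02G195900, Glyma.13G095200 and Glyma.17G218600 both OX5 triangles lie above both OX5 circles.

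Over the whole table, 10 tested loci (0.0329%) were called lower by limma in all 18 alternative fits of the comparison. All 10 were members, which were selected on the same contrast, and 6 of them were among the 12 loci with the highest ratio. The other 4 are described here, a choice made after the fits had been seen. Glyma.15G064500.Wm82.a4.v1 had 9.12, 10.9, 7.97 and 6.80 FPKM across WT and 2.24, 2.03, 2.73 and 1.97 FPKM in OX5, where its libraries differed little. Glyma.04G141400.Wm82.a4.v1 had 26.4, 31.2, 20.97 and 17.4 FPKM across WT and 9.20, 8.28, 8.17 and 7.72 FPKM in OX5. Its WT libraries spread more widely than its OX5 libraries, and its OX5 mean was 34.8% of its WT mean.

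Glyma.02G014300.Wm82.a4.v1 had 7.18, 3.37, 6.26 and 5.02 FPKM across WT and 0.670, 0.529, 1.10 and 0.462 FPKM in OX5, the latter from 8 to 19 reads. Glyma.16G020500.Wm82.a4.v1 had 4.95, 5.21, 4.76 and 3.34 FPKM across WT and 1.28, 0.583, 0.747 and 0.415 FPKM in OX5. The OX5 means of these loci were 12.6% and 16.6% of their WT means. At the other end, the smallest ratio of means among the members, 1.99, was at Glyma.13G249800.Wm82.a4.v1, singled out after its value was seen. It had 17.6, 19.96, 18.2 and 18.2 FPKM across WT and 10.1, 10.96, 9.48 and 6.70 FPKM in OX5, with OX5 replicate 4 below the rest.

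The 6 members with the highest WT means had OX5 means of 26.3% to 47.6% of the WT level, where the median over all members was 29.4%. The highest was the locus numbered 696 outside the annotation, with 144, 212, 184 and 219 FPKM across WT and 63.1, 38.2, 85.1 and 57.7 FPKM in OX5. Its OX5 mean was 32.2% of its WT mean, and its chromosome is not in the ID. Glyma.20G036100.Wm82.a4.v1 had 118, 127, 142 and 160 FPKM across WT and 72.2, 33.2, 62.8 and 53.2 FPKM in OX5. Glyma.07G015800.Wm82.a4.v1 had 109, 101, 96.0 and 83.5 FPKM across WT and 45.7, 49.3, 52.0 and 38.2 FPKM in OX5, from 3419 to 10527 reads per library. With its depth, counting error at this locus was small, and its OX5 mean was 47.6% of its WT mean.

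Glyma.01G021000.Wm82.a4.v1 had 92.5, 63.6, 76.3 and 64.2 FPKM across WT and 29.7, 13.6, 20.9 and 13.8 FPKM in OX5. Glyma.17G029200.Wm82.a4.v1 had 80.8, 77.2, 66.1 and 51.8 FPKM across WT and 21.8, 23.9, 15.2 and 23.1 FPKM in OX5. Glyma.12G140200.Wm82.a4.v1 had 61.2, 64.7, 71.1 and 73.8 FPKM across WT and 28.9, 18.5, 37.4 and 26.4 FPKM in OX5. The OX5 means of these loci were 26.3%, 30.4% and 41.1% of their WT means, and OX5 replicate 2 was the lowest library at the first and the last of them.

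**Figure D3:**
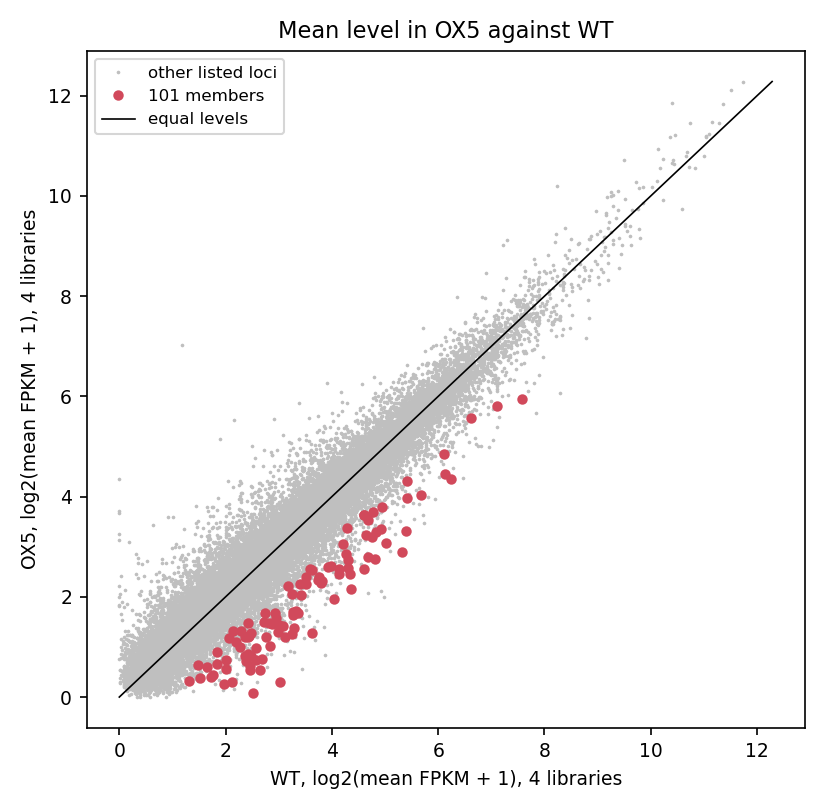
Mean level in OX5 against mean level in WT, each as log2(mean FPKM + 1) over 4 libraries, for the 101 members (red) and the other listed loci (grey), with a line of equal levels. Members lie below the line over WT means from 1.48 to 190 FPKM.

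The members differed in how steady they were within a line. Glyma.17G211900.Wm82.a4.v1, singled out after its values were seen, varied least between WT libraries, with 5.55, 5.603, 5.89 and 5.58 FPKM across WT and 2.53, 2.28, 1.95 and 2.01 FPKM in OX5. Its coefficient of variation in WT was 2.77%, against a median of 17.8% over the members. The widest in WT was Glyma.14G116400.Wm82.a4.v1 at 79.8%. The gap between the lines was wider than the range within WT for 80 members, wider than the range within OX5 for 65 and wider than both for 56. That gap is the log2 of the ratio used by the rule, which held it at 0.589 or more in every member. These counts therefore describe the selection, and nothing is read from them. The median SD of the members' log2 values was 0.23 in WT and 0.31 in OX5, and over all tested loci it was 0.21 and 0.26. The SD was higher in OX5 for 61 members (60.4%), close to the 61.6% of all tested loci.

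Some members also differed strongly between WT replicates 1 and 4. FPKM + 1 was at least 1.5 times higher in WT replicate 1 than in WT replicate 4 for 13 members (12.9%), and in the opposite direction for 6 members (5.94%). Over all tested loci these shares were 13.0% and 12.2%. At Glyma.11G154700.Wm82.a4.v1, singled out after its values were seen, the WT libraries had 32.6, 29.3, 23.8 and 13.1 FPKM, while the OX5 libraries lay between 5.22 and 6.69 FPKM. At Glyma.12G221500.Wm82.a4.v1, chosen in the same way, the WT libraries had 8.39, 14.8, 20.9 and 34.3 FPKM and the OX5 libraries 1.56 to 4.65 FPKM. The WT libraries of these loci thus spanned a wider range than the OX5 libraries, and the lines did not overlap, as the rule requires.

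The pairs of OX5 libraries divided the members. In 31 members (30.7%) both OX5 replicates 1 and 2 were below both OX5 replicates 3 and 4, and in 10 (9.90%) both were above. Over all tested loci the order was the other way round, with 20.6% below and 46.2% above. After scaling by median-ratio size factors, 48 members (47.5%) were below and 5 (4.95%) above, beside 31.6% and 31.9% of all tested loci, so the balance over all loci depends on the scaling. With each library rescaled to an equal sum, the members' counts were 31 and 10 again. For the 114 loci higher in OX5, 8 were below and 63 above with values as deposited, and 23 and 40 after median-ratio scaling. These counts describe the libraries and were not tested, since the pairs are not groups of the study. The rule used the same OX5 values, through the highest of them, so selection shapes the order of the OX5 libraries in members. Nothing is therefore read from the contrast with all tested loci.

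Among the members, the largest differences between the OX5 pairs were in the direction of lower values in replicates 1 and 2. The pairs differed by at least 1 on the log2(FPKM + 1) scale in 6 members, lower in replicates 1 and 2 at each. No member reached that cut the other way, but Glyma.15G017000.Wm82.a4.v1 came close at 0.97. Over all tested loci the difference ran from −4.59 to 5.62. The share of them beyond the cut is not given here, so nothing is read from the count. Glyma.03G202600.Wm82.a4.v1 had 66.3, 29.1, 38.9 and 29.8 FPKM across WT and 2.05, 1.27, 17.2 and 15.1 FPKM in OX5. Glyma.05G124900.Wm82.a4.v1 had 25.9, 25.6, 23.5 and 33.3 FPKM across WT and 1.30, 0.898, 10.9 and 9.75 FPKM in OX5. At both loci OX5 replicates 3 and 4 lay between the WT libraries and the other OX5 libraries. These were 2 of the 4 members not called by limma, with adjusted p = 0.080 and adjusted p = 0.0603. The others, named after the fit was seen, were Glyma.17G165300.Wm82.a4.v1 at adjusted p = 0.0702 and Glyma.14G116400.Wm82.a4.v1 at adjusted p = 0.0568 by the same limma fit.

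In the opposite direction, Glyma.15G017000.Wm82.a4.v1 had 29.4, 28.8, 23.5 and 22.9 FPKM across WT and 13.9, 8.32, 5.59 and 4.50 FPKM in OX5. Glyma.07G244700.Wm82.a4.v1 had 11.9, 19.9, 12.1 and 12.7 FPKM across WT and 5.37, 7.24, 3.61 and 3.94 FPKM in OX5. Glyma.03G137000.Wm82.a4.v1 had 4.11, 5.56, 3.73 and 4.01 FPKM across WT and 0.798, 1.52, 0.535 and 0.361 FPKM in OX5. Here the OX5 pairs differed by 0.97, 0.60 and 0.56 on the log2 scale, less than at the loci above. In 43 members the pair means lay within 0.2 of each other, and the share of all tested loci this close is not given here. Taken by pair, the median member difference from WT was −1.48 for OX5 replicates 1 and 2 and −1.34 for OX5 replicates 3 and 4.

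**Figure D4:**
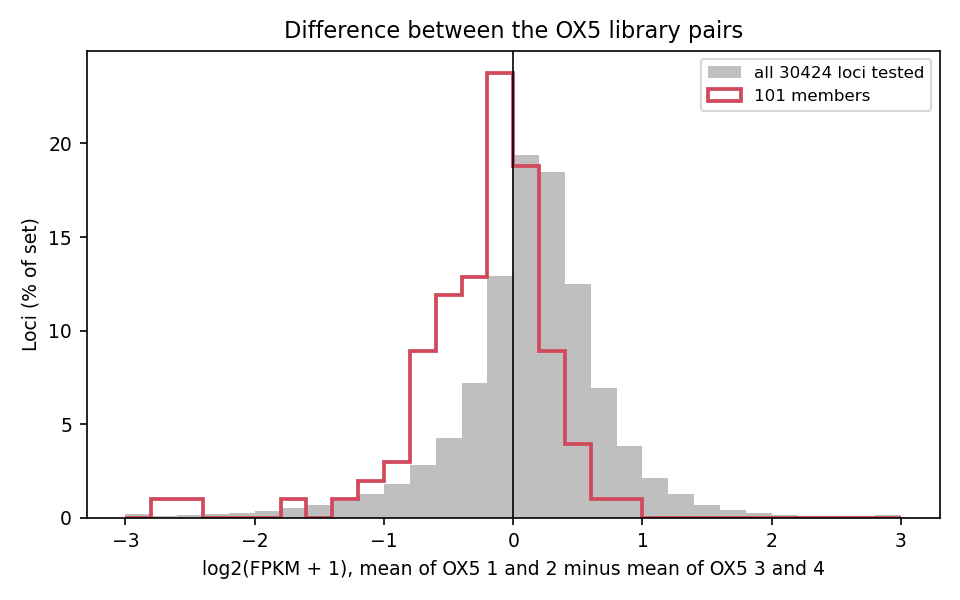
Distribution of the difference between the mean of OX5 1 and 2 and the mean of OX5 3 and 4, on the log2(FPKM + 1) scale, as a percent of the 101 members (red line) and of the 30424 tested loci (grey bars, values beyond ±3 placed in the end bars). The members' median is −0.11 and that of all tested loci 0.17, but the members were selected on these same OX5 values. After median-ratio scaling the loci as a whole are balanced between the directions.

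By its definition the ratio of each member rests on a single WT library and a single OX5 library. The highest OX5 value was in OX5 replicate 3 for 49 members (48.5%). That library was the highest OX5 library for 18.7% of all tested loci. OX5 replicate 2 was the lowest OX5 library for 44 members (43.6%) and for 20.5% of tested loci. Among WT libraries, the lowest value was most often in replicate 1, for 37 members (36.6%), beside 38.999% of tested loci. Since the rule used the lowest WT and the highest OX5 value, selection shapes the members' shares. Nothing is read from how they differ from those of all tested loci. Without OX5 replicate 3 the rule gave 243 members in place of 101, and without WT replicate 1 it gave 208. Without WT replicate 4 there were 199 and without WT replicate 2 there were 152.

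The edge of the set was gradual. The members just inside it were Glyma.10G239900.Wm82.a4.v1, Glyma.14G116400.Wm82.a4.v1 and Glyma.02G058000.Wm82.a4.v1, with ratios of 1.52, 1.52 and 1.504. The last of these had 3.22, 7.80, 4.08 and 4.62 FPKM across WT and 0.522, 0.481, 1.81 and 1.03 FPKM in OX5. Just outside lay Glyma.06G262100.Wm82.a4.v1, Glyma.14G020000.Wm82.a4.v1 and Glyma.17G126400.Wm82.a4.v1, with ratios of 1.498, 1.496 and 1.493. The first of these had 13.0, 17.0, 13.7 and 15.6 FPKM across WT and 7.19, 5.69, 8.37 and 5.59 FPKM in OX5, with no overlap between the lines. A ratio of at least 1.4 would have given 154 loci, one of at least 1.6 would have given 70, and one of at least 2 would have given 17.

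Members were found on all 20 chromosomes. Chromosome 2 held 10, and chromosomes 6 and 17 held 9 each, while chromosome 1 held 1. As a share of tested loci this was 0.610% on chromosome 17, 0.604% on chromosome 2 and 0.0787% on chromosome 1, beside 0.332% over all tested loci. The counts per chromosome are small and no test of them was made. Within 10 listed loci of another member lay 12 members, in 6 pairs on chromosomes 2, 9, 10, 11, 15 and 20.

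The adjacent pair was on chromosome 9. At Glyma.09G163900.Wm82.a4.v1 the WT libraries read 35.7, 46.6, 32.7 and 39.8 FPKM and the OX5 libraries 3.85, 1.57, 10.3 and 10.1 FPKM. Its neighbour in the table, Glyma.09G163700.Wm82.a4.v1, had 7.46, 20.2, 7.63 and 10.3 FPKM across WT and 0.566, 0.680, 2.11 and 2.31 FPKM in OX5. Both loci were lower in OX5 replicates 1 and 2 than in OX5 replicates 3 and 4, and both were highest in WT replicate 2. Of the listed loci to each side, Glyma.09G162400.Wm82.a4.v1 had a WT mean of 45.5 FPKM and an OX5 mean of 58.3 FPKM, and Glyma.09G164000.Wm82.a4.v1 had 402.7 and 339 FPKM. Their log2 differences were 0.39 (SE 0.18, limma adjusted p = 0.254) and −0.17 (SE 0.28, limma adjusted p = 0.764). Whether reads of the pair could be shared between similar copies was not tested.

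**Figure D5:**
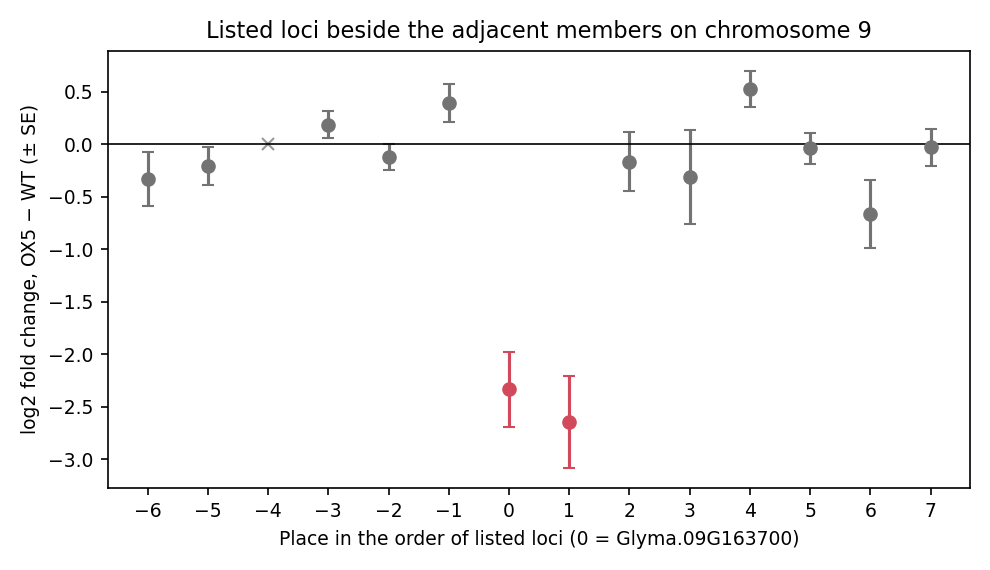
Log2 fold change of OX5 against WT on log2(FPKM + 1), with its limma standard error, for the loci listed in order around the adjacent members on chromosome 9 (red) and 6 to each side (grey); the cross is a locus below the minimum mean of 0.5 FPKM, with no value. The members stand at −2.34 and −2.65, and the listed neighbours between −0.67 and 0.52.

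Of 182 tested neighbours that are not members, 6 (3.30%) were called lower and 2 higher, and 16 (8.79%) had every WT library above every OX5 library, beside the 1.01% and 5.35% of all tested loci. Their median log2 difference was −0.06, and that of all tested loci was 0.04. The near pairs on chromosomes 2, 15 and 11 are described here, a choice made after their values were seen. Glyma.02G255100.Wm82.a4.v1, which lies 2 listed loci after Glyma.02G254600.Wm82.a4.v1, had 4.09, 4.29, 3.51 and 4.70 FPKM across WT and 1.08, 1.42, 1.37 and 1.27 FPKM in OX5. Its OX5 libraries were close together, and their mean was 31.0% of the WT mean. Glyma.15G064900.Wm82.a4.v1, which lies 3 listed loci after Glyma.15G064500.Wm82.a4.v1, had 8.12, 7.97, 8.58 and 7.43 FPKM across WT and 4.11, 3.10, 4.16 and 3.14 FPKM in OX5. On chromosome 11, Glyma.11G123000.Wm82.a4.v1 lies 9 listed loci after Glyma.11G121900.Wm82.a4.v1 and had 2.95, 3.42, 2.90 and 3.37 FPKM across WT and 1.30, 1.18, 1.31 and 1.26 FPKM in OX5. The second locus of each of these pairs kept a larger share of its WT level in OX5 than the first.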

How the data were processed

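The authors deposited 1 table of FPKM per locus with a column for each of the 8 libraries, and 0 columns of per-sample values were left unused. A single row without a name or values was left out. HISAT2 2.1.0, HTSeq 0.6.0, Bowtie2 2.2.3, TopHat2 and CASAVA are listed, with no roles, per the submitters' processing notes. How shared reads were treated, which strand setting was used and which build was aligned to is not given in the sources used here.

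Whole reads were recovered from the steps of the FPKM values, which have 4 decimals. All 31785 loci were solved, 99 in 100 of them within 0.00758 reads of whole numbers, and the method was tested on simulated reads. Intervals and limits at 0 reads cover counting error only.

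The whole-table comparison used limma 3.58.1 (R 4.3.3) with a variance trend on log2(FPKM + 1), for loci with a mean of at least 0.5 FPKM, p-values being adjusted by Benjamini-Hochberg and called under 0.05. It was tested on simulated reads of independent libraries, which lack the pairs found within OX5. Python 3.11.15, numpy 2.4.6, pandas 2.3.3 and matplotlib 3.10.9 were used.

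The members, tests and lists were chosen with earlier results of these data known. The rule for named loci took the 12 highest ratios, the 6 highest WT means, adjacent members, the 3 loci to each side of the threshold and the 3 largest differences between the OX5 pairs in each direction; others were chosen after their values were seen. The 15 lists built on gene descriptions were not used, since no ID could be matched. Alternatives changed the pseudocount, filter, scaling, rule, replicate block and libraries. Leaving out OX5 libraries by pair, and limma-voom on recovered reads for loci with at least 50 reads, were added after seeing the data.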

Additional observations from a re-analysis of the deposited data

Results flagged for a closer look

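At Glyma.07G244700.Wm82.a4.v1, WT replicate 2 stood far from the other WT libraries, at 19.9 FPKM against 11.9 to 12.7 FPKM. The gap to the nearest library was 0.902 of the range of the group, above Dixon's critical value for a group of this size. It was the 1 such value among 54 groups of 4 libraries examined, and chance flags about 1 in 20 groups. The groups examined did not cover both lines of every member, and such values in the remaining groups were not counted. Among those, Glyma.10G018800.Wm82.a4.v1, singled out after its values were seen, had 1.72, 0.604, 1.72 and 1.715 FPKM in OX5. Its OX5 replicate 2 thus also stood far from the rest.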

How the results depend on the processing

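Against 308 loci called lower over the whole table, the replicate block gave 23 (16 of them members), limma-voom on recovered reads 194, and the fits without OX5 replicates 1 and 2 or 3 and 4 gave 113 and 1757. Leaving out 1 library gave 23 (without WT replicate 3) to 335 (without OX5 replicate 3). The filters, scalings and pseudocount gave 270 to 448. Against 101 members, a pseudocount of 0.1 gave 181, rescaling to a sum of 1000000 gave 159 and a ratio of at least 2 gave 17. Without OX5 replicates 1 and 2 or 3 and 4 the limit of 300 was reached, and leaving out 1 library gave 115 to 243 members. All of the 101 remained in each of these sets but that of the stricter ratio and the capped set without OX5 replicates 3 and 4, where 39 remained. Leaving out a library or lowering the pseudocount cannot lower the ratio of a member. Nothing is therefore read from their retention in those sets. Median-ratio factors kept 98 of the 101 among 118, quantile normalization 93 among 113. The median member log2 difference of −1.45 became −1.82 with a pseudocount of 0.1 and −1.85 with limma-voom. The members lower in OX5 replicates 1 and 2 numbered 48, not 31, with median-ratio factors. Deviations of same-numbered libraries of the lines correlated at −0.056, 0.071, 0.128 and −0.061 across loci; best matches often had other numbers, so the numbers were not taken as pairs. For none of these shifts was the cause tested. Depth limits the OX5 values of the 20 members with under 10 reads in a library.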

Other observations

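An empty row divides the deposited table after 2452 loci. Of the members, 98 stand before it and 3 after it, the latter being Glyma.17G218600.Wm82.a4.v1, Glyma.05G124900.Wm82.a4.v1 and Glyma.03G202600.Wm82.a4.v1. At each of these OX5 replicates 1 and 2 lay below OX5 replicates 3 and 4. Of the 729 loci called in either direction by limma, 717 stand before the row, among 2403 tested there. What the authors meant by the row is not given in the sources used here.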
